A study of Mus musculus with 3 samples.

Results

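The genes described here are 32 genes of glycolysis and of the response to low oxygen, read in the open chromatin of mouse hematopoietic stem cells (HSCs). They were taken by name from a fixed list of transporters, glycolytic enzymes, lactate dehydrogenases, pyruvate dehydrogenase kinases (PDKs) and genes of the hypoxia-inducible factor (HIF) system, and the rule uses no measured value. The list itself was chosen with earlier results of these data known. All 32 were found among the 21755 protein-coding genes of chromosomes 1 to 19 and X. The cells came from bone marrow of 8-week-old female C57BL/6 mice, wild type and named C57BL6/J in the methods of the study, with no treatment stated. They were enriched on c-Kit beads and sorted as the CD34−CD48−CD150+ part of the lineage-negative cells that carry Sca-1 and c-Kit, the gate used for long-term HSCs. DOGMA-seq, which reads RNA, transposase-accessible chromatin (ATAC) and surface antibody tags from the same cells, gave 1 ATAC library from 1 preparation, so no value below has a replicate and no condition is compared with another.

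Glycolysis turns glucose into pyruvate, and most of its steps can be run by several isozymes that come from different genes and prevail in different tissues. Pyruvate then either becomes lactate, which lactate dehydrogenase makes, or enters mitochondria, where the PDKs hold back its oxidation. HIF is a transcription factor made of an oxygen-labile alpha subunit and a stable beta subunit. In oxygen, prolyl hydroxylases mark the alpha subunit and the VHL protein targets it for degradation. Without oxygen, HIF binds DNA at a short core with the letters ACGTG or GCGTG and raises many glycolytic genes. HSCs reside in marrow that is low in oxygen and are known for a strong use of glycolysis at rest.

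The ATAC library had 3757 called cells, of which 3108 had more than 3000 fragments in peaks and are used below. They held 37137164 unique fragments, with a median of 11442 and a range of 3970 to 194134 per cell. Each value is the number of fragments that overlap a window of 1 kb on both sides of the start of the gene's principal transcript, summed over the 3108 cells, with an exact 95% Poisson interval in parentheses. Shares of cells are given with an exact binomial 95% interval where they decide a call or a ratio, and both kinds of interval cover counting error only. Of the 9 HSC markers reported here, the 3 genes *Kit*, *Mecom* and *Hlf* had a promoter that was open, with a fragment in at least 10% of cells, and held 1614, 1746 and 1846 fragments. *Ly6a* and *Slamf1*, which encode the Sca-1 and CD150 antigens of the gate, had 52 and 132, *Procr* and *Vwf* had 238 and 233, and *Cd34* and *Cd48*, whose antigens the gate excludes, had 247 and 64, and none of these 6 was open. None of the 4 B cell, 4 T cell, 4 erythroid and 4 granulocyte-monocyte markers was open, whereas all 4 megakaryocyte markers and 1 of 4 endothelial and stromal markers (*Col1a1*) were. The erythroid gene *Klf1* was close to the limit, with a fragment in 9.81% of cells (8.79 to 10.9), an interval that included 10%. RNA per gene was not analysed here, so the values are of open chromatin and not of transcripts.

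A promoter was called open when at least 10% of cells had a fragment in it. By this rule 30 of the 32 genes (93.8%) were open, against 48.3% of all protein-coding genes. The median of the 32 genes was 1016 fragments, which is above the median of all protein-coding genes (337) and below that of the open ones alone (1175). The genes therefore ranged around the ordinary level of an open promoter, and 1316 genes of the genome exceeded the highest of them. Counted against all genes, 13 of the 32 lay above the upper quartile of 1134 fragments and 6 above the 90th percentile of 2230. Promoters rich in G and C tend to be open, so each gene was also set beside genes of the same decile of promoter GC content. There 21 of the 32 exceeded the median of their decile, and their median percentile was 60.3, compared with 72.5 among all genes. These counts have no test, because there is 1 library.

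**Figure D1:**
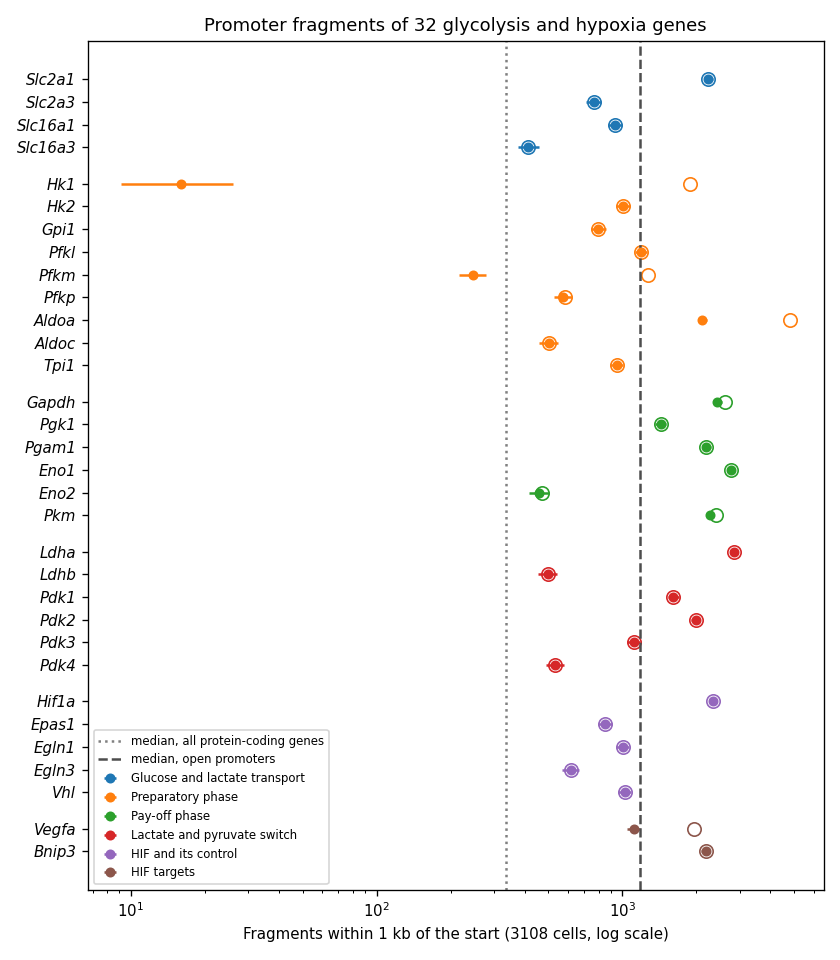
Fragments within 1 kb of the start of each gene (log axis), summed over 3108 cells. Filled points are at the principal start with 95% Poisson intervals for counting error, open circles are at the best-covered annotated start, and vertical lines are the medians of all protein-coding genes (337) and of open promoters (1175). Hk1 and Pfkm lie below the dotted line at the principal start and above the dashed line at the best-covered one.

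Glucose enters and lactate leaves through 2 transporter families. *Slc2a1*, which encodes the widespread glucose transporter GLUT1, had 2234 fragments (2142 to 2329) and was seen in 45.9% of cells. *Slc2a3*, which encodes the high-affinity transporter GLUT3, had 765 (712 to 821) in 19.4%. *Slc2a1* was thus 2.92 times as accessible at its start (2.69 to 3.17). The monocarboxylate transporter gene *Slc16a1*, whose product MCT1 moves lactate in either direction, had 936 fragments (877 to 998). *Slc16a3*, which encodes the lactate exporter MCT4, had 415 (376 to 457). Its share of 10.9% of cells (9.80 to 12.0) was the lowest among the open genes of the list, and the interval included the limit of 10%. The order of this last pair turned when the gene body and 2 kb upstream were counted per kb, where *Slc16a3* had 72.9 and *Slc16a1* had 59.1 fragments per kb.

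The first steps of glycolysis trap and split glucose. *Hk2*, an inducible hexokinase that phosphorylates glucose, had 1007 fragments (946 to 1071) in 24.6% of cells. *Hk1*, the housekeeping hexokinase, had only 16 (9.15 to 26.0) at the principal start of the annotation, in 0.515% of cells (0.295 to 0.835). This low value belongs to 1 of 4 groups of annotated *Hk1* starts and not to the gene. Within 250 bp the upstream-most start held 9.98 fragments per kb (3.24 to 23.3), an interval that includes the genome mean of 14.1, and the next 2 starts, 21546 and 37186 bp downstream, held at most 35.9. The last start, 39366 bp downstream of the first, held 2367 fragments per kb (2234 to 2506) in 27.7% of cells. Counted over 1 kb on both sides of that start, *Hk1* had 1884 fragments and exceeded *Hk2* 1.87-fold (1.73 to 2.02). Over the gene body and 2 kb upstream the order was turned, with 43.89 fragments per kb at *Hk1* and 52.15 at *Hk2*, a ratio of 0.84 (0.80 to 0.88).

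The promoter sequences of both *Hk1* starts are shown because the same gene holds a closed and an open start. They are RefSeq entries on GRCm38.p6, from 250 bases before the start to 50 after, read 5′ to 3′ on the strand of the gene. Capitals mark ACGTG or GCGTG and their reverse complements CACGT and CACGC.
Hk1 closed start, chr10:62379859-62380158, minus strand: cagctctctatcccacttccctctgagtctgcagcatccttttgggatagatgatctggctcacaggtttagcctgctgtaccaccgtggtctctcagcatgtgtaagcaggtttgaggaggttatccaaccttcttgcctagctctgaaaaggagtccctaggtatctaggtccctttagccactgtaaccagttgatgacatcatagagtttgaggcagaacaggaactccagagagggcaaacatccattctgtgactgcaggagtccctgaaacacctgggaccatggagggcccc
Hk1 open start, chr10:62340372-62340671, minus strand: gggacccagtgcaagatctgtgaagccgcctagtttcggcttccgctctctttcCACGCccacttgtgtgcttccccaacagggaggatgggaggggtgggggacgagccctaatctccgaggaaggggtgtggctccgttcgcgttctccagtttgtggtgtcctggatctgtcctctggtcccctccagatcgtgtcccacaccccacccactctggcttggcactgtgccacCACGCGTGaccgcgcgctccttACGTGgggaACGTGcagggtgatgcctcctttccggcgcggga

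The closed *Hk1* entry overlapped 5 fragments, had a GC content of 51.3% and held neither motif. The open entry overlapped 912 fragments, had a GC content of 63.3%, and held 2 matches to ACGTG and 3 to GCGTG, counting both strands.

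*Gpi1*, which encodes the isomerase that turns glucose phosphate into fructose phosphate, had 797 fragments (743 to 854). Phosphofructokinase, the committed step, has 3 isozyme genes. The liver-type gene *Pfkl* led with 1194 fragments (1127 to 1264), followed by the platelet-type gene *Pfkp* with 573 (527 to 622). The muscle-type gene *Pfkm* had 247 (217 to 280) in 6.66% of cells (5.81 to 7.59) and was the second gene of the list that was not open. *Pfkm* also has a group of annotated starts 15877 bp upstream, and a window of 1 kb around the best-covered of these held 1270 fragments. Most of that signal did not lie at the *Pfkm* start, since only 5.86% of the cut sites were within 250 bp and the highest step was 775 bp downstream. *Senp1*, on the opposite strand, starts 607 bp downstream of it, so the window cannot be assigned to *Pfkm* alone. No other gene of the list had a start of another protein-coding gene in its window, at the principal or at the best-covered start.

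Aldolase splits the hexose, and triose phosphate isomerase interconverts the products. *Aldoa*, the aldolase of muscle and of most tissues, had 2117 fragments (2028 to 2209), and the brain-type gene *Aldoc* had 503 (460 to 549). Much of the *Aldoa* signal in this window belonged to a neighbouring start of the same gene. Within 250 bp the principal start held 268 fragments per kb (224 to 317), whereas starts 1193 bp downstream held 5836 (5646 to 6030) in 61.9% of cells. Over 1 kb on both sides of the best-covered start *Aldoa* had 4823 fragments, the most of any gene of the list. With a window of 500 bp on both sides of the principal start, *Aldoa* took 41.8% of the aldolase fragments and *Aldoc* the larger part. *Tpi1*, the isomerase gene, had 948 fragments (889 to 1010).

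The 2 *Aldoa* starts are shown for the same reason as those of *Hk1*, with the same marks.
Aldoa principal start, chr7:126800398-126800697, minus strand: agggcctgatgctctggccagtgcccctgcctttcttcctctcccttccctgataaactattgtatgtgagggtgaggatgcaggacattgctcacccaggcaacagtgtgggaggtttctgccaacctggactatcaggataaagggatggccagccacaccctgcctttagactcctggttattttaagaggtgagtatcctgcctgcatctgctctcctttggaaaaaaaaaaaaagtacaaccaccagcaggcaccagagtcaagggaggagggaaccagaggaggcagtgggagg
Aldoa downstream start, chr7:126799205-126799504, minus strand: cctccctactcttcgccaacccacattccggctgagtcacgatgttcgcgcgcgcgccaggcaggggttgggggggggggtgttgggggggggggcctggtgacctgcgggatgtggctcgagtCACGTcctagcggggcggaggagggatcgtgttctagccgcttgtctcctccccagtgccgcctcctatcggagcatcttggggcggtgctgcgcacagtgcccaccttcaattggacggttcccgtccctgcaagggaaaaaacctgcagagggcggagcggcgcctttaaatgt

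The upstream *Aldoa* entry overlapped 72 fragments in 2.16% of cells and held no match to the searched motifs. The downstream entry overlapped 2888 fragments in 56.3% of cells, the most of the 44 entries of the list. It held ACGTG once (as CACGT) and the GC box GGGCGG in 3 places, at GC contents of 52.7% for the upstream and 65.7% for the downstream entry.

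**Figure D2:**
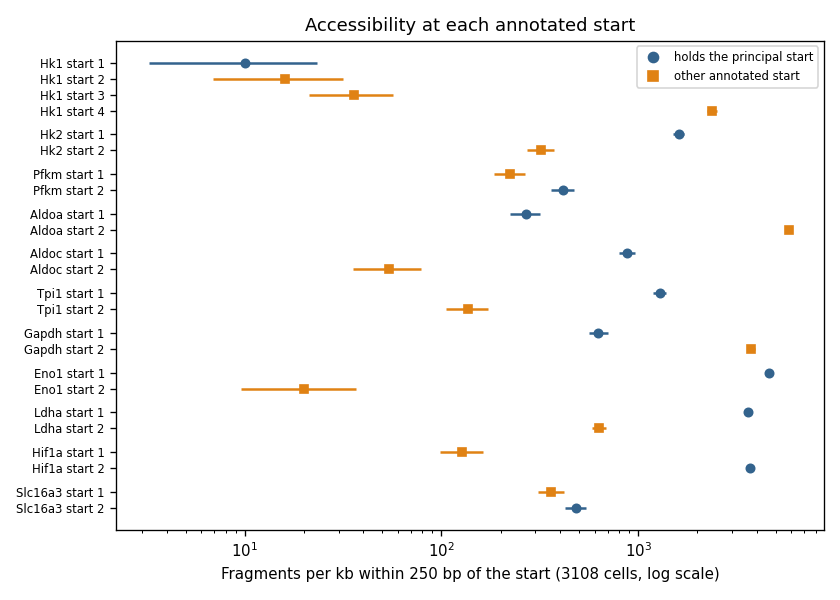
Fragments per kb within 250 bp of each group of annotated starts (log axis), for the 11 genes of the list with more than 1 group, numbered from the 5′ end of the gene. Points are sums over 3108 cells with 95% Poisson intervals. The principal start of Hk1 lies at 9.98 and its last start at 2367 fragments per kb, and the principal start of Aldoa lies at 268 and its second at 5836.

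The later steps of glycolysis yield ATP, and all their genes had an open start. *Gapdh*, which oxidizes glyceraldehyde phosphate, had 2434 fragments (2338 to 2533). *Pgk1*, which makes the first ATP, had 1434 (1361 to 1510), and *Pgam1*, the phosphoglycerate mutase gene, had 2190 (2099 to 2284). *Eno1*, the enolase of most tissues, had 2779 (2677 to 2884), while the neuron-type gene *Eno2* had 460 (419 to 504) in 11.5% of cells. *Pkm*, which encodes the pyruvate kinases of most tissues outside liver and red blood cells, had 2275 (2182 to 2370). Besides *Eno2*, every gene of this phase was above the upper quartile of all genes. Relative to the median of promoters with like GC content, *Pgam1* stood 3.77-fold, *Eno1* 3.44-fold and *Pkm* 3.21-fold higher, and *Eno2* at 0.487 of it. The *Gapdh* start also lay off the principal one, with 627 fragments per kb at the principal start and 3760 at a start 694 bp downstream.

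*Ldha*, the lactate dehydrogenase subunit that favours lactate, had 2841 fragments (2737 to 2947) in 52.8% of cells, the highest count of the list at principal starts. Its interval overlapped that of *Eno1*, so their order is not settled by counting error alone. *Ldhb*, the heart-type subunit, had 496 (453 to 542) in 13.3% of cells. *Ldha* was therefore 5.73 times as accessible as *Ldhb* (5.21 to 6.31) at the start and 7.69 times over the gene body per kb. At the 5′ end of the gene record, where the direction was turned, *Ldha* took 16.1% of the fragments of the pair. All 4 PDK genes were open, with *Pdk2* highest at 1989 fragments (1903 to 2078) and *Pdk1*, a well-known HIF target, at 1611 (1533 to 1692). The X-linked gene *Pdk3* had 1112 (1048 to 1179) and the starvation-induced gene *Pdk4* had 533 (489 to 580). The 4 intervals did not overlap, so the order *Pdk2*, *Pdk1*, *Pdk3*, *Pdk4* exceeded counting error at the starts. Over gene bodies per kb *Pdk4* (38.4, 35.3 to 41.6) exceeded *Pdk3* (22.9, 21.8 to 24.0).

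Both listed alpha subunit genes of HIF were open. *Hif1a*, whose product is the general oxygen-labile subunit, had 2339 fragments (2245 to 2436) in 47.2% of cells (45.4 to 48.9). *Epas1*, which encodes the related subunit HIF2A, had 850 (794 to 909) in 21.1% (19.7 to 22.6). *Hif1a* thus had 2.75 times the promoter fragments of *Epas1* (2.54 to 2.98). Over the gene body with 2 kb upstream the ratio per kb was 1.97 (1.86 to 2.08). At the 5′ end of the gene record the direction was turned, with a ratio of 0.0941, because the *Hif1a* record begins at a start 6529 bp upstream that held 128 fragments per kb against 3703 at the principal start. Of the listed controls of HIF, the prolyl hydroxylase gene *Egln1* had 1004 fragments (943 to 1068) and the hypoxia-induced hydroxylase gene *Egln3* had 618 (570 to 669). *Egln2*, the prolyl hydroxylase gene outside the 32, had more than both, with 3524 (3409 to 3642) in 62.9% of cells. *Vhl* had 1024 (962 to 1089), and its interval overlapped that of *Egln1*. Over gene bodies per kb *Egln3* (65.4) exceeded *Egln1* (36.8).

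The 2 listed targets of HIF outside metabolism were both open. *Bnip3*, which promotes removal of mitochondria, had 2184 fragments (2093 to 2278) in 43.3% of cells, with an interval that overlapped those of *Pgam1* and *Slc2a1*. *Vegfa*, the vascular growth factor gene, had 1112 (1048 to 1179) at the principal start and 1962 in the window around its best-covered start. *Vegfa* has many annotated starts that lie close together, and only 7.61% of the cut sites counted around the best-covered start were within 250 bp of it.

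Promoter sequences of 4 genes, the glycolytic gene *Pgk1*, *Ldha*, *Bnip3* and *Hif1a*, are shown because they hold the HIF core and were open, with the capitals as above.
Ldha, chr7:46845554-46845853, plus strand: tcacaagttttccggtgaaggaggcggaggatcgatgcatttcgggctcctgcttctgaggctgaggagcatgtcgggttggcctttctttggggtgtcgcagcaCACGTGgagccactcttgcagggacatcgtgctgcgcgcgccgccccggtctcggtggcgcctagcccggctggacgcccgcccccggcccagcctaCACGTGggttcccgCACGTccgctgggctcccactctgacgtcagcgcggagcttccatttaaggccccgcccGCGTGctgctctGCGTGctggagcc
Pgk1, chrX:106186850-106187149, plus strand: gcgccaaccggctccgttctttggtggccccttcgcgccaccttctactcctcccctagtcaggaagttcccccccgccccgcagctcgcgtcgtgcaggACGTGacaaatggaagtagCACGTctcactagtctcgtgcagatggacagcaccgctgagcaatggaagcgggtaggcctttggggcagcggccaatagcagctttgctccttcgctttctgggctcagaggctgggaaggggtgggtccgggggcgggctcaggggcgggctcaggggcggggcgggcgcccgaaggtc
Bnip3, chr7:138909457-138909756, minus strand: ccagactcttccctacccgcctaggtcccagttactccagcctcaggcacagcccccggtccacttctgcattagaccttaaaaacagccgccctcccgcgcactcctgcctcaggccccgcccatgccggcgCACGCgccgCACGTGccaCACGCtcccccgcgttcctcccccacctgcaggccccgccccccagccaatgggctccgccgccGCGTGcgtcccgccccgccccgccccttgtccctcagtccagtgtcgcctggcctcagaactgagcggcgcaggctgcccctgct
Hif1a, chr12:73907617-73907916, plus strand: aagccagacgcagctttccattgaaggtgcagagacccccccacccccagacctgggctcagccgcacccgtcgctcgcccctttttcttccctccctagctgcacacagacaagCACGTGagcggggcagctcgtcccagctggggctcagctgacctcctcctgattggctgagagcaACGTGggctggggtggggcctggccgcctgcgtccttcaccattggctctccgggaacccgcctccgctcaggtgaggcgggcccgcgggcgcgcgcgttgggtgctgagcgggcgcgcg

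The *Ldha* entry overlapped 1379 fragments and held 5 matches to ACGTG and 2 to GCGTG, counting both strands. The 5 include 2 copies of the palindrome CACGTG, each of which counts once on each strand. *Pgk1* held 2 matches to ACGTG and 5 to the GC box. *Bnip3* held 3 matches to GCGTG and 2 to ACGTG, the latter being the 2 strands of 1 CACGTG. *Hif1a* held 3 matches to ACGTG, of which 2 are the strands of 1 CACGTG. The overlapping fragments were 1212 for *Pgk1*, 1675 for *Bnip3* and 1433 for *Hif1a*.

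RefSeq promoter entries were found for 30 of the 32 genes, 44 entries in all. Either ACGTG or GCGTG, on any strand, was in 75% of these entries and in 44.0% of all 32619 entries of the same length. The listed promoters were also richer in G and C, with a median of 62.2% against 53.0%. Among the 7472 entries with GC content between the quartiles of the listed ones, 61.5% held either motif. The 44 listed entries were not themselves limited to that range, so the comparison was not matched entry by entry. The difference was carried by ACGTG, which was in 50.0% of the listed entries and 25.7% of the entries of like GC content, while GCGTG was in 52.3% and 49.9%. CACGTG, which contains ACGTG, was in 13.6% and 10.1%. The GC box GGGCGG was in 56.8% and 62.2%, the ETS core CCGGAA in 11.4% and 25.7%, and the TATA box TATAAA in 6.82% and 5.19%. These are matches of letters in a short window and do not show binding, and several entries of a gene can overlap.

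**Figure D3:**
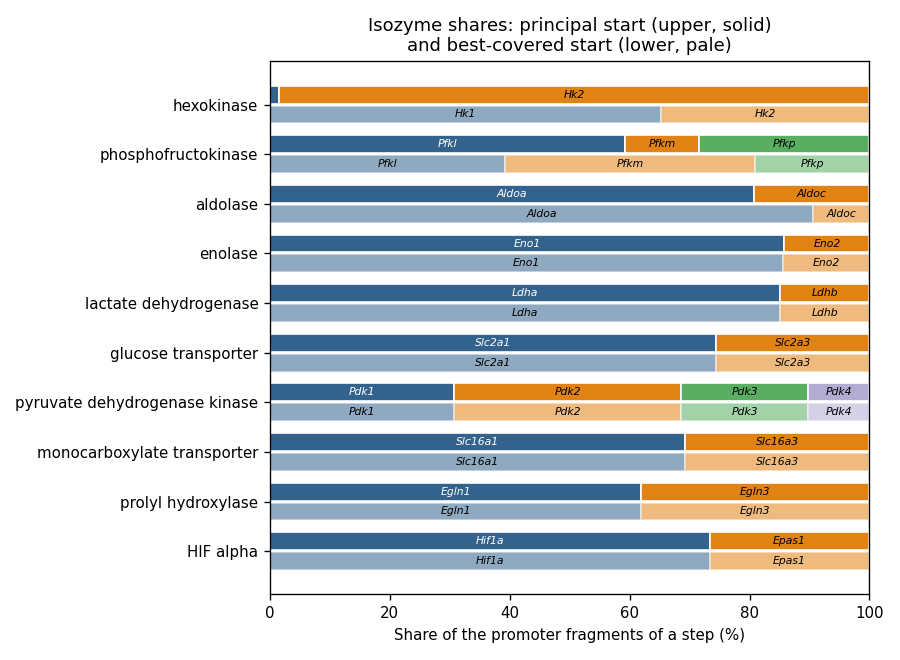
Share of each isozyme gene in the fragments within 1 kb of the start, among the genes of the list of 32, for each step with several, in percent. Upper solid bars use principal starts and lower pale bars best-covered starts. Ldha holds 85.1% and Eno1 85.8% at principal starts, while the hexokinase step passes from Hk2 (98.4%) to Hk1 (65.2%) with the choice of start.

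Among the listed genes of a step, 1 usually held most of the promoter fragments. These shares leave out genes of the same families outside the 32, of which *Egln2* (3524 fragments), *Eno4* (1894), *Slc2a4* (1130) and *Hif3a* (905) had counts that would lower them, and *Egln2* exceeded the listed *Egln1*. At principal starts *Eno1* took 85.8% of the fragments of *Eno1* and *Eno2* (84.6 to 87.0), *Ldha* 85.1% (83.9 to 86.3) and *Aldoa* 80.8% (79.2 to 82.3). *Slc2a1* took 74.5%, *Hif1a* 73.4%, *Slc16a1* 69.3% and *Egln1* 61.9% of those of the listed genes. The shares were more even in phosphofructokinase, where *Pfkl* took 59.3%, and among the PDK genes, where *Pdk2* took 37.9%. In 8 of the 10 steps the same gene led at the best-covered starts. The exceptions were the hexokinase and phosphofructokinase steps. In the first, *Hk1* took 65.2%. In the second, *Pfkm* took 41.7% with the window shared with *Senp1*, and its ratio to *Pfkl* included 1 (*Pfkl* over *Pfkm* 0.940, 0.868 to 1.02).

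Isozymes that serve other tissues were mostly not open. Of 16 such genes 3 were open (18.8%, against 48.3% of all protein-coding genes), and their median was 64.5 fragments. Their promoters had a median GC content of 49.2%, against 51.5% of all genes, and their median percentile among genes of like GC content was 30.7. The testis genes *Pgk2*, *Ldhc* and *Gapdhs* had 1, 11 and 15 fragments, the liver gene *Slc2a2* had 8, and the muscle genes *Eno3* and *Pgam2* had 137 and 190. *Hk3*, a hexokinase of white blood cells, had 163, and *Pklr*, the pyruvate kinase of liver and red blood cells, had 72. These counts lay within or below the range of the B cell, T cell, erythroid and granulocyte-monocyte markers, 4 to 351 fragments, and below the megakaryocyte markers, 729 to 1178. The open genes included *Eno4* with 1894 fragments (1810 to 1981) and the insulin-regulated transporter gene *Slc2a4* with 1130 (1065 to 1198). The genes *Hkdc1*, *Slc16a8* and *Slc16a4* had 19, 111 and 57 fragments. *Slc16a7* had 9 at its principal start, and so was not counted as open, but 795 around its best-covered start.

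A further list of 48 genes around the same pathways had 35 open promoters (72.9%, against 48.3% of all protein-coding genes) and a median of 1072 fragments. Open were 8 of 9 partners and controls of HIF, 13 of 19 genes of the hypoxia response, 4 of 5 genes that set the level of fructose bisphosphate, 9 of 10 genes of pyruvate entry and 1 of 5 genes of gluconeogenesis. The highest were *Mpc2*, a subunit of the mitochondrial pyruvate carrier, with 6830 fragments, the histone demethylase gene *Kdm3a* with 5800 and *Cited2*, a HIF-induced inhibitor of HIF, with 4356. The *Mpc2* window also holds the start of *Dcaf6*, 572 bp upstream on the opposite strand. The lowest were *G6pc*, which releases free glucose in liver, with 10, and *Pck1* and the testis gene *Pdha2* with 14 each. Of the gluconeogenesis genes, the open one was *Pck2*, with 568 fragments.

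Bins of 500 bp over the gene bodies and 2 kb upstream were compared where they lay more than 1 kb from the start of every annotated transcript of a protein-coding gene. Of 1544 such bins, 1 reached 10% of cells and 14 reached 5%, and the latter belonged to 7 genes. The highest was in intron 2 of *Eno1* (chr4:150240221-150240720), 3518 bp downstream of the start, with 371 fragments (334 to 411) in 10.7% of cells. Intron 1 of *Pkm* followed with 338 (303 to 376), and intron 2 of *Vegfa* had 270 in its highest bin, intron 1 of *Egln3* 261, intron 2 of *Hk2* 259 and intron 1 of *Slc2a1* 226. The highest bin of *Slc2a3*, 21813 bp upstream of its principal start (chr6:122764309-122764808), had 255 (225 to 288) in 7.01% of cells, inside the gene record but outside the principal transcript. That bin held 33.3% as many fragments as the *Slc2a3* promoter window, and 3 bins of the gene reached 5% of cells. The HIF subunit genes were lower. *Epas1* had 138 (116 to 163) in intron 2, 48749 bp from the start, and *Hif1a* had 58 in intron 5. Per fragment of its own promoter window, the *Epas1* site amounted to 16.2% and the *Hif1a* site to 2.48%.

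**Figure D4:**
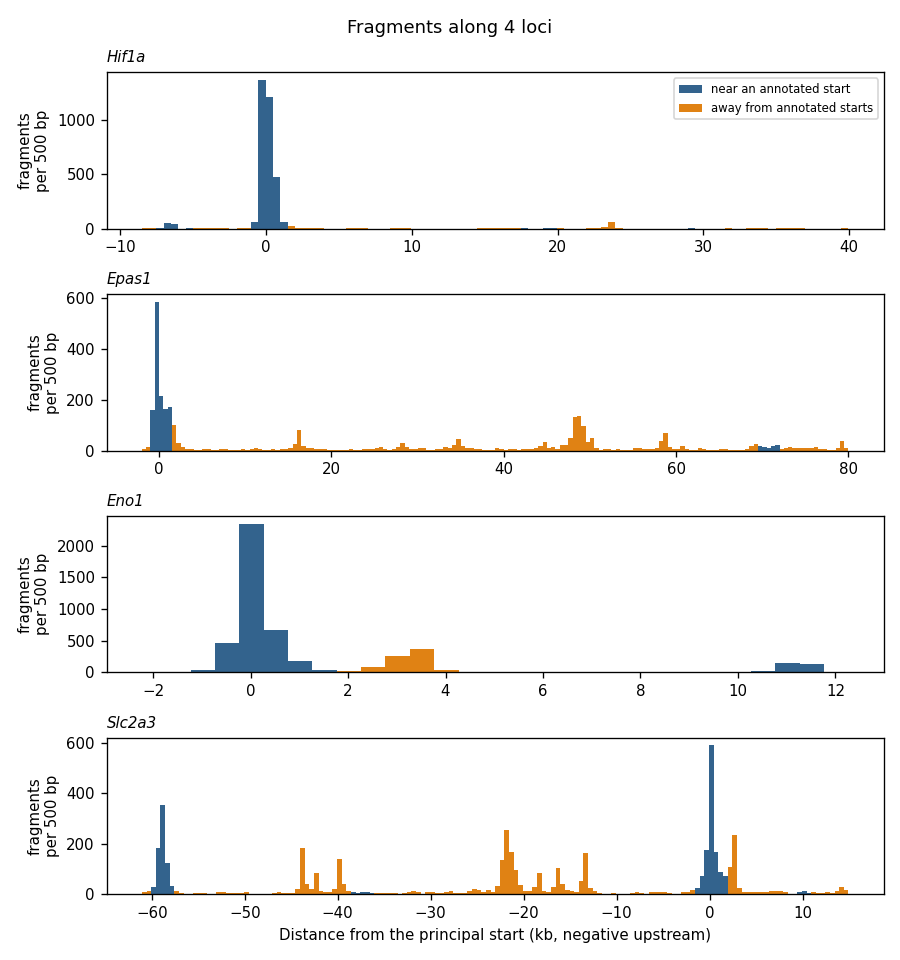
Fragments in bins of 500 bp along Hif1a, Epas1, Eno1 and Slc2a3, by distance from the principal start in kb, summed over 3108 cells, with a separate vertical scale for each gene. Blue bins are within 1 kb of the start of an annotated transcript of a protein-coding gene and orange bins are not. Hif1a shows 1 narrow block at the start, whereas Slc2a3 has an orange bin of 255 fragments 21813 bp upstream and Eno1 one of 371 in intron 2.

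In single cells, a median of 9 of the 32 promoters had a fragment, with quartiles of 7 and 11 and a range of 1 to 26. A promoter without a fragment in a cell is not thereby closed, since the share of cells with a fragment depends on depth. At least 16 of the promoters were seen in 3.60% of cells. The number followed the fragments per cell, with medians of 6, 8, 9 and 12 promoters in 4 groups of equal size from the lowest to the highest depth. The sum over the 32 genes per 10000 fragments moved little in comparison, from 11.4 (11.2 to 11.7) in the lowest depth group to 10.6 (10.4 to 10.8) in the highest. The sum over all protein-coding promoters moved with it, from 4802 to 4358, and the 32 genes held 2.38, 2.40, 2.41 and 2.44 of 1000 promoter fragments in the 4 groups. Cells below the median mitochondrial share of ATAC reads had 11.1 per 10000 fragments and those above it 11.0, and a split at the median of RNA UMIs gave the same 2 values. All these cells are of 1 library and are not replicates.

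**Figure D5:**
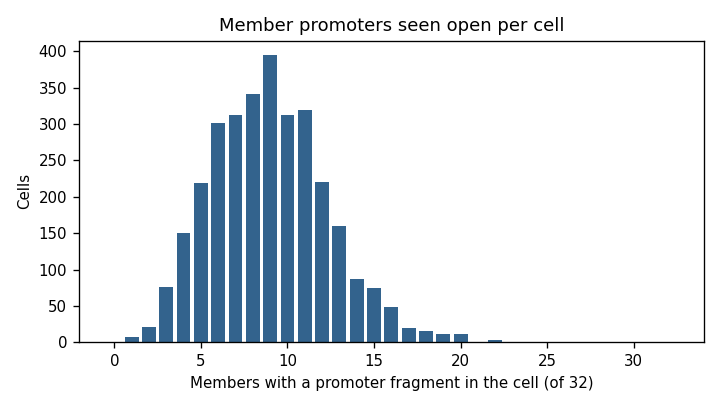
Number of cells (vertical axis) by how many of the 32 promoters had at least 1 fragment in the cell (horizontal axis), for 3108 cells. The largest number of cells, 395, had 9, with a median of 9 promoters and a range of 1 to 26.

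Single genes were followed over the same groups of depth. *Hif1a* had 0.667 fragments per 10000 (0.600 to 0.738) in the lowest group and 0.590 (0.550 to 0.632) in the highest, and *Epas1* had 0.226 (0.188 to 0.269) and 0.230 (0.206 to 0.257). *Ldha* had 0.858 (0.783 to 0.939) and 0.689 (0.646 to 0.734), intervals that did not overlap and that fell in the same direction as all promoters. In the groups between, in order of depth, *Ldha* had 0.757 and 0.828, so its values did not fall steadily. *Vegfa* had 0.262 (0.221 to 0.308) and 0.321 (0.292 to 0.352), with overlapping intervals. A fragment at *Epas1* was found in 22.2% (20.1 to 24.5) of the 1466 cells that had one at *Hif1a* and in 20.2% (18.2 to 22.2) of the 1642 that had none. The former had a median of 11994 fragments and the latter 10953. Within the 4 groups of depth the share was higher with *Hif1a* in 2 and lower in 2, and the intervals overlapped in each.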

How the data were processed

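The data were 1 ATAC library of HSCs with the barcode table it shares with 1 RNA library and 1 ADT library of the same preparation. The authors ran Cell Ranger ARC 2.0.2 on the mm10 reference and deposited raw counts per barcode (reads, UMIs, fragments) and the position of every unique fragment with its count of read pairs. For the shift of fragment ends for the transposase, no setting was given in the sources read. The ADT matrix and RNA per gene were not used here. No fragment ended beyond its chromosome in GRCm38. The 32 genes and all lists were chosen with earlier results of these data known.

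Called cells with more than 3000 fragments in peaks were kept, and doublets were not removed. For each protein-coding gene of GENCODE M21 the principal start was taken by APPRIS rank, support level, CCDS and length, and other starts were those of protein-coding transcripts in the basic set. *Aldoa* has 2 gene records, and the one with the lower identifier was used. Fragments were counted when they overlapped the window, so 1 fragment can count in 2 bins, and bodies had 2 kb added upstream. Named genes were the 32 genes, isozymes of other tissues, and the 3 highest and lowest of the pathway list, while *Dcaf6*, *Senp1*, *Pck2*, *Egln2* and *Hif3a* were named after their values were seen. Some genes of the isozyme and marker lists are not reported here. Promoter sequences and motifs came from RefSeq entries on GRCm38.p6. Poisson and Clopper-Pearson intervals at 95% cover counting error only, because reads of 1 library hold no replicate. Counting steps were tested on simulated data. Python 3.11.15, numpy 2.4.6, pandas 2.3.3, scipy 1.17.1 and matplotlib 3.10.9 were used.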

Additional observations from a re-analysis of the deposited data

How the results depend on the processing

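The count of open promoters, their median percentile, the ratio of *Hif1a* to *Epas1* and the shares among listed isozymes were recomputed with the start at the 5′ end of the gene record or at the best-covered annotated start, with windows of 500 bp or 2 kb on both sides, in all called cells, in cells with more than 6000 fragments in peaks, in cells thinned to 3000 fragments, with cut sites in place of fragments, with fragments of 2 or more read pairs, with fragments shorter than 150 bp and, chosen after seeing the data, without the 5% of cells with the most fragments. With limits of 5% and 20% of cells 31 and 22 of the 32 promoters were open (58.2% and 32.8% of all genes), and at 5 times the genome mean 31 were (60.3%). The number of open promoters stayed within 1.5 times 30 except after thinning, where it was 12 and the share of all genes was 21.2%, with fewer fragments per cell. The median percentile was 74.1 at the best-covered starts and 69.7 with windows of 500 bp, and 60.3 within GC deciles, against 72.5. The ratio of *Hif1a* to *Epas1* was 0.0941 at the 5′ end of the gene record, 1.97 over the body, 2.36 with windows of 2 kb and 4.29 with short fragments. Of 110 isozyme shares under alternatives 104 kept the leading gene and 6 did not. At the 5′ end of the gene record these were *Pfkl* (39.2%), *Ldha* (16.1%) and *Hif1a* (8.60%), at the best-covered start *Hk2* (34.8%) and *Pfkl* (39.2%), and with windows of 500 bp *Aldoa* (41.8%). No paired analysis was possible because each assay has 1 library. The other values were not recomputed. Depth limits the values per cell, and without a second library the spread between preparations is unknown.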

Other observations

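The length of fragments differed between the promoters. Fragments shorter than 150 bp, which fit between nucleosomes, made up a median of 54.3% at open protein-coding promoters, with 10th and 90th percentiles of 39.1% and 68.2%. *Pgk1* (74.9%, 72.6 to 77.1) and *Bnip3* (69.9%, 67.9 to 71.8) lay above that range, but the interval of *Bnip3* included its upper end. No open gene of the list lay below the range. *Epas1* (39.5%), *Eno2* (40.7%) and *Slc16a3* (40.7%) were near its lower end, while *Hif1a* had 61.7%. Among the PDK genes *Pdk1*, *Pdk2* and *Pdk3* had 63.1% to 66.0% and *Pdk4* had 43.5%.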
